A study of Mus musculus with 4 samples.

Results

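Astrocytes clear glutamate and potassium from around synapses and handle water at the blood vessels. After injury they can become reactive, a state known for more intermediate filament protein and for induced acute-phase proteins. N6-methyladenosine (m6A) is a methyl mark on RNA that sits mostly near stop codons and in 3' UTRs. In methylated RNA immunoprecipitation sequencing, RNA fragments bound by an anti-m6A antibody are sequenced and read counts are taken at peaks. The genes examined here were 10 genes named as markers of astrocytes and of their reactive form, and the question was how their peaks differed between injured and control cortex. The homeostatic genes were Slc1a2, Slc1a3, Glul, Aqp4, Gja1 and Sox9, and the reactive genes were Gfap, Vim, Serpina3n and Cp.

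The members were found by gene symbol in the table of all peaks, and 33 of its 33977 peaks belonged to them. They covered 8 of the 10 genes, with 25 peaks in the 6 homeostatic genes and 8 in 2 reactive genes, Serpina3n and Cp. Gfap and Vim, the intermediate filament genes by which reactive astrocytes are most often recognised, had no row in the table used here and were not analysed. The homeostatic against reactive comparison therefore rests on 2 reactive genes.

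The tissue was mouse cerebral cortex. One group of 2 libraries came from mice given a sham procedure and the other group of 2 from mice with repetitive mild traumatic brain injury (rmTBI). All 4 libraries are labelled with the same anti-m6A antibody. Strain, age, sex, time after injury and the source of each library (different mice or pools) were not given in the sources used here, and p-values therefore measure only library-to-library spread, which may be technical. Each library carries a number, 0 or 1, whose meaning is not given either. All 4 carry the antibody label, yet the authors' deposited log2 compares number 1 with number 0 between the groups, as a contrast of immunoprecipitated with input RNA would. Whether number 0 is input could not be settled. If it is, means and folds over both numbers mix input with immunoprecipitated RNA, and the 1 over 0 ratio is the enrichment. Each group holds 1 library of each number, so the spread within a group includes any difference between the numbers. The same holds for the SEs and p-values of rmTBI against sham in a fit without a term for the number. Per-library values are therefore listed in the order 0 and 1, and folds within each number are given for many of the peaks and genes.

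The libraries held 13753600 to 26888072 counts over all peaks, with the 2 libraries numbered 0 at about the same depth and those numbered 1 deeper. Levels below are CPM, a peak's reads scaled to a library of fixed size, with TMM scaling. A peak's counts mix the amount of a transcript with its methylation, and in bulk tissue fewer cells of a type and less RNA per cell cannot be told apart. Marker lists of other cell types moved with the group. All 8 measured cortical neuron markers were higher in rmTBI (median log2 of rmTBI over sham 0.49), all 8 measured thalamic markers were lower (median -2.59), all 9 oligodendrocyte markers were lower (median -0.78), and 4 of 5 choroid plexus and ependymal markers were lower (median -1.85). Of 3 meningeal fibroblast markers with a row, Col1a2 (1.82) and Col6a1 (0.95) were higher and Igf2 (-0.95) was lower, with a median of 0.95. Their part in the astrocyte results was not tested.

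By the authors' classes, 23 of the member peaks lay in 3' UTRs, 9 in coding sequence and 1 in a 5' UTR. The 3' UTR share was 69.7% of the member peaks, against 39.7% of all peaks in the table. Peaks had been called separately in the rmTBI and the sham libraries and then stacked, so many rows overlap and share reads. The 33 rows formed 21 stretches that do not overlap one another. Of these, 11 held rows of both sets and 4 held only a row of the rmTBI set. The remaining 6 held only a row of the sham set. For 4 of those, that row stood among the rmTBI rows of the table, at a place where an rmTBI peak number is missing, so a call in both sets cannot be told apart from a call in sham alone. All 33 peaks lay inside their gene as RefSeq places it in GRCm38.p6, although the submitters' processing notes name GRCm39, and positions are given as deposited and read as GRCm38.

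Slc1a2 and Slc1a3 encode the glutamate transporters of astrocytes, the first dominant in the adult forebrain and the second also found in radial glia. Slc1a2 had 7 peaks in 5 stretches on chromosome 2, 1 in the 5' UTR and 6 in the 3' UTR. Its highest peak (102789914 to 102790574, at the end of the 3' UTR, centre 0.540 kb before the gene's end) held 462 and 408 CPM in sham libraries 0 and 1 and 475 and 419 CPM in rmTBI libraries 0 and 1. The groups overlapped, the libraries numbered 0 were the higher ones in both groups, and the log2 fold (rmTBI over sham throughout) was 0.04 (SE 0.21).

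The 5' UTR peak of Slc1a2 (102658688 to 102658809) lay 0.509 kb from the gene's start. It held 33.7 and 27.2 CPM in sham and 40.2 and 32.3 CPM in rmTBI, a log2 fold of 0.25 (SE 0.26), with 0.26 between the pair numbered 0 and 0.25 between the pair numbered 1. The sham and rmTBI values overlapped across the numbers, although within each number the rmTBI library was the higher one. The first 3' UTR peak (102782156 to 102782367, 8.52 kb before the gene's end) held 199 and 194 CPM in sham and 229 and 204 CPM in rmTBI. These groups did not overlap, at a log2 fold of 0.14 (SE 0.21). All 7 peaks of Slc1a2 had log2 folds between 0.04 and 0.25, the smallest of them at the highest peak.

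Slc1a3 had the highest gene-level log2 fold of the 6 homeostatic genes, 0.27. On chromosome 15, its coding peak (8708665 to 8710494, centre 1.23 kb from the gene's start) held 189 and 217 CPM in sham and 225 and 264 CPM in rmTBI. Both rmTBI libraries lay above both sham libraries, with means of 203 ± 20.0 CPM for sham and 244 ± 27.9 CPM for rmTBI (SD, n = 2 each) and a log2 fold of 0.27 (SE 0.22). Its long 3' UTR peak (8635980 to 8639086) held 135 and 151 CPM in sham and 167 and 179 CPM in rmTBI, also without overlap (log2 0.27, SE 0.22). The short 3' UTR peak near the gene's end (8634962 to 8635142), called only in the rmTBI set, was higher in rmTBI only within number 1 (fitted log2 0.11, SE 0.33). It held 40.5 and 23.8 CPM in sham and 40.3 and 29.0 CPM in rmTBI, a log2 fold of -0.01 within number 0 and 0.28 within number 1.

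Glul encodes glutamine synthetase, which turns the glutamate taken up by astrocytes into glutamine. Its single peak, in the 3' UTR on chromosome 1 (153908141 to 153908262), was in the rmTBI set only. It held 29.4 and 18.7 CPM in sham and 24.6 and 18.5 CPM in rmTBI, with a log2 fold of -0.16 (SE 0.31). The groups overlapped, and the log2 of number 1 over number 0, -0.54, was the larger difference.

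Aqp4 encodes the water channel of astrocyte endfeet. Its gene lies on chromosome 18, where the 3' UTR peak (15393039 to 15393728) held 67.9 and 116 CPM in sham and 60.3 and 105 CPM in rmTBI, a log2 fold of -0.15 (SE 0.36) with -0.17 within number 0 and -0.14 within number 1. The groups overlapped because the libraries numbered 1 stood well above those numbered 0. The coding peak (15399697 to 15403684, a span that can include introns) held 22.4 and 16.1 CPM in sham and 16.9 and 18.6 CPM in rmTBI. There the sign turned with the number, from a log2 of -0.40 within number 0 to 0.21 within number 1. Gja1 encodes the main gap junction protein of astrocytes, and its gene-level log2 fold over 5 peaks on chromosome 10 was -0.02, between -0.15 without rmTBI library 0 and 0.10 without rmTBI library 1. The coding peak (56387583 to 56387972) held 152 and 105 CPM in sham and 152 and 103 CPM in rmTBI (log2 -0.01, SE 0.29). The first 3' UTR peak (56388209 to 56388927) held 74.4 and 71.0 CPM in sham and 71.6 and 71.3 CPM in rmTBI (log2 -0.03, SE 0.23), and its other 3' UTR peaks had log2 folds of -0.02 and -0.05.

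Sox9 encodes the transcription factor that directs glial fate and stays on in adult astrocytes. On chromosome 11, its larger 3' UTR peak (112784973 to 112785903) held 22.9 and 27.4 CPM in sham and 22.1 and 23.5 CPM in rmTBI (log2 -0.14, SE 0.25). The peak nearer the gene's end (112786141 to 112786442) held 21.3 and 23.2 CPM in sham and 23.5 and 20.5 CPM in rmTBI (log2 -0.02, SE 0.25). The groups overlapped at both, and at the second the sign differed between the numbers (0.14 and -0.17).

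**Figure D1:**
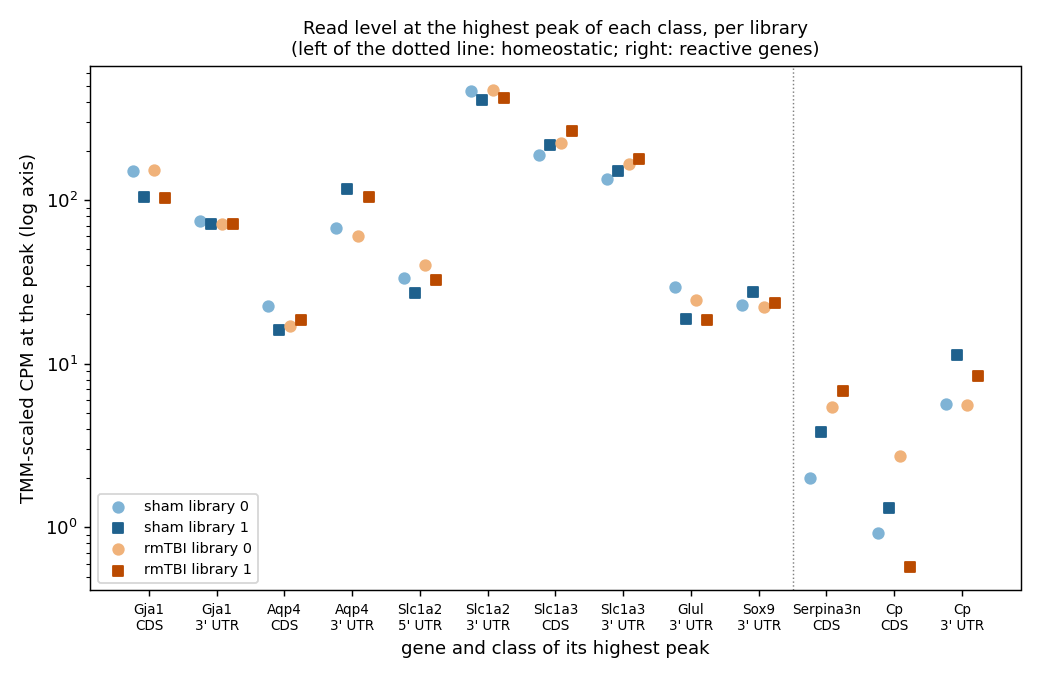
TMM-scaled CPM (log axis) at the highest peak of each class in each of the 8 genes, 1 point per library, with sham in blue, rmTBI in orange, circles for number 0 and squares for number 1. The rmTBI points lie above the sham points at Serpina3n (5.46 and 6.84 against 2.00 and 3.80 CPM) and, by a smaller ratio, at both Slc1a3 peaks, while at the Aqp4 3' UTR peak and the Gja1 coding peak the points sort by library number.

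Serpina3n encodes a secreted serine protease inhibitor that is a known marker of reactive astrocytes. Its rows were 2 coding peaks on chromosome 12, of 421 bases each and offset from one another, which share most of their reads. The peak from 104408855 to 104409275 held 28 and 104 counts in sham libraries 0 and 1 and 72 and 190 counts in rmTBI libraries 0 and 1. In CPM that was 2.00 and 3.80 in sham and 5.46 and 6.84 in rmTBI, or 2.90 ± 1.28 against 6.15 ± 0.974 (SD, n = 2 libraries each). Both rmTBI libraries lay above both sham libraries, the fitted level in rmTBI was 2.08 times that in sham (log2 1.06, SE 0.37), and the ratio was 2.70 within number 0 and 1.79 within number 1. The overlapping peak (104408885 to 104409305) gave a log2 fold of 0.99 (SE 0.37). The unadjusted p-values were 0.0212 and 0.0279, and both adjusted p-values were 1 over all peaks (edgeR quasi-likelihood F-test, Benjamini-Hochberg), so the difference did not pass in this fit, which has no term for the library number. With the library number as a block both peaks were called (smallest adjusted p = 0.00018, edgeR), although no label makes same-numbered libraries pairs. At gene level the value of 1.02 stood at percentile 99.4 of 10209 genes. Serpina3n belongs to a cluster of 11 closely related Serpina3 genes on its chromosome in RefSeq, and how reads that match several of them were counted is not given, so its counts are uncertain. No other Serpina3 gene had a row here. Microglial markers were higher for 6 of 8 measured genes (median log2 0.26), with summed levels of 42.2 and 50.5 CPM in sham and 56.3 and 57.1 CPM in rmTBI, and the meningeal fibroblast markers had summed levels of 31.2 and 28.6 CPM in sham and 46.9 and 44.1 CPM in rmTBI, with Col1a1, Col3a1, Dcn and Lum among those without a row. The part of either list in the Serpina3n values was not tested.

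Cp encodes ceruloplasmin, a copper-carrying ferroxidase made by astrocytes and also by the choroid plexus. It had 6 peaks in 4 stretches on chromosome 3, and they did not move together. The main 3' UTR peak (20006318 to 20007198) held 5.70 and 11.3 CPM in sham and 5.61 and 8.38 CPM in rmTBI (log2 -0.29, SE 0.38), with overlapping groups, and the 2 shorter peaks inside it gave -0.27 and -0.31. The other 3 peaks were shallow. The coding peak (19974984 to 19977202) held 13 and 36 counts in sham libraries 0 and 1 and 36 and 16 counts in rmTBI libraries 0 and 1, which is higher in rmTBI within number 0 and lower within number 1. The 3' UTR peak from 20005484 to 20006170 held 24 and 33 counts in sham and 4 and 30 in rmTBI. In CPM that was 1.71 and 1.21 in sham and 0.303 and 1.08 in rmTBI. It was the one member peak whose rmTBI libraries both lay below both sham libraries in CPM, by a log2 of only -0.16 within number 1. The last 3' UTR peak (20008845 to 20008995) held 11 and 3 counts in sham and 3 and 18 in rmTBI, too few for a fold to be read. At gene level Cp had a log2 fold of -0.28, with -0.05 within number 0 and -0.42 within number 1. Its sign was not stable, at 0.29 without sham library 1, -0.70 without rmTBI library 1, -0.67 without sham library 0 and 0.08 over the sham-set peaks. The choroid plexus and ependymal markers with a row, among which Ttr and Folr1 were missing, had summed levels of 41.4 and 43.3 CPM in sham and 12.6 and 13.0 CPM in rmTBI, and their part in the Cp values was not tested.

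Over all 33 member peaks, 0 were called different between rmTBI and sham by edgeR, with no term for the library number, at an adjusted p under 0.05, against 0.0868% of the 33415 peaks tested. At an unadjusted p under 0.05 there were 2, both of Serpina3n, against a background of 2.84%. DESeq2 with the same model also called 0 member peaks. With the library number as a block, edgeR called 6 of the 33, all higher in rmTBI, beside 3553 of the 33415 peaks tested. The rmTBI and sham libraries did not overlap at 10 member peaks, 9 of them higher in rmTBI, which is 30.3% of the members against 24.5% of all tested peaks. Those 9 lay in Slc1a2 with 4, Slc1a3 with 3 and Serpina3n with 2, and the lower one was in Cp. In each of Slc1a2, Slc1a3 and Serpina3n, 2 of these rows overlap one another and share reads, so the 9 are not separate results.

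**Figure D2:**
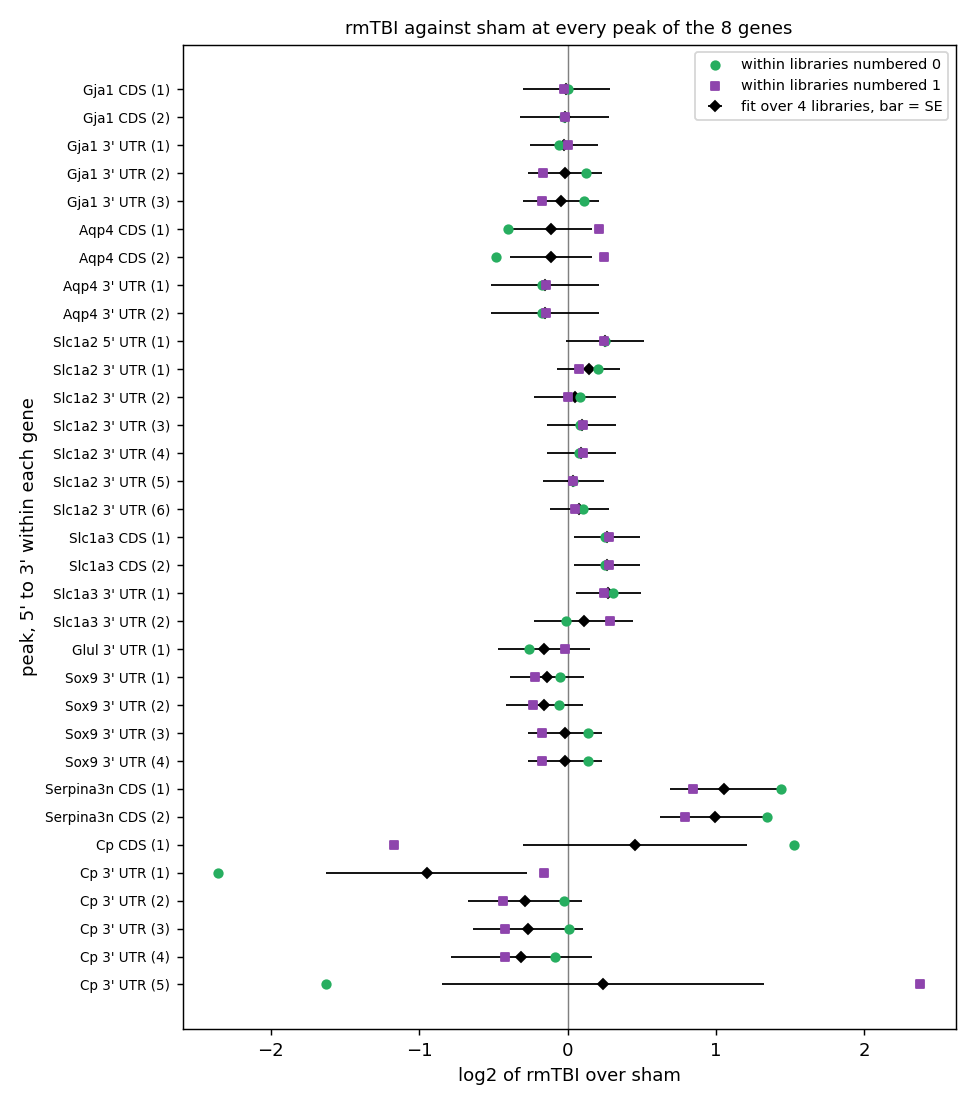
Log2 of rmTBI over sham at each of the 33 peaks, ordered from 5' to 3' within a gene, with black diamonds for the fit over 4 libraries (bar, SE), green circles for the libraries numbered 0 and purple squares for those numbered 1. The 2 Serpina3n peaks are at 1.06 and 0.99, the 25 homeostatic peaks lie between -0.16 and 0.27, and the shallow Cp peaks have their circles and squares far apart.

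Set against each other by role, the homeostatic genes had gene-level log2 folds with a median of -0.05, with 2 higher, 4 lower and a range from -0.16 (Glul) to 0.27 (Slc1a3). The median was 0.02 within number 0 and 0.01 within number 1, so its sign differed from that of the fit, and the quartiles over all genes tested were -0.16 and 0.16. Leaving out 1 library moved it between -0.03 (without rmTBI library 0) and 0.07 (without rmTBI library 1). Each of the 4 lower genes turned positive in at least 1 such fit. The reactive genes stood at 1.02 for Serpina3n and -0.28 for Cp, whose sign turned without sham library 1 (0.29), and a median of 0.37 over such a pair describes neither. Leaving out sham library 0 made it -0.01, leaving out rmTBI library 1 made it 0.07, and leaving out sham library 1 made it 0.94. The median over all 10209 genes was 0.01.

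Measured within each library, the log2 CPM of Serpina3n minus the homeostatic median was -4.59 and -3.82 in sham libraries 0 and 1. In rmTBI libraries 0 and 1 it was -3.12 and -3.03. For Cp the same difference was -4.76 and -4.53 in sham and -4.36 and -4.90 in rmTBI. Serpina3n thus lay nearer to the homeostatic genes in each rmTBI library than in either sham library, while the values of Cp overlapped between the groups.

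Compared per kilobase at each gene's densest peak of at most 1000 bases, Slc1a2 had the highest level, 913 to 1078 CPM per kb over the 4 libraries. Gja1 followed with 550 to 824 CPM per kb. Glul (151 to 241), Slc1a3 (132 to 224) and Aqp4 (91.3 to 176) overlapped in range with their neighbours in this order. Sox9 stood at 75.5 to 86.4 CPM per kb. The reactive genes were far lower, Cp at 14.2 to 26.7 and Serpina3n at 4.91 to 16.2 CPM per kb, and these also overlapped. Such levels combine transcript amount with the strength of the mark at the chosen peak.

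The other label that separates the libraries is their number. With number alone in the model, edgeR called 7 of the 33 member peaks between number 1 and number 0, or 21.2%, against 16.4% of all peaks tested. It called 3 member peaks higher in number 1, where the background was 7.17%, and 4 lower, where it was 9.25%. The 3' UTR peaks of Aqp4 were higher in number 1, by a log2 of 0.79 (SE 0.11, adjusted p = 0.00694), with ratios of library 1 to library 0 of 0.78 in sham and 0.80 in rmTBI on the log2 scale. The main 3' UTR peak of Cp was higher as well (log2 0.80, SE 0.21, adjusted p = 0.0444).

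Lower in number 1 were the coding peak of Gja1 (log2 -0.55, SE 0.08, adjusted p = 0.00905), with the shorter peak inside it, the short 3' UTR peak of Slc1a3 (log2 -0.61, SE 0.13, adjusted p = 0.0249) and the Glul peak (log2 -0.54, SE 0.14, adjusted p = 0.0388). Other peaks of the same genes did not pass. In Gja1 the first 3' UTR peak stood at -0.04, and at 0.06 with library-size scaling. The longer Aqp4 coding peak stood at -0.18 and the Slc1a3 coding peak at 0.22. Differences between peaks of a gene were not tested. Over all tested peaks the median log2 of number 1 over number 0 was 0.16 in 3' UTRs and -0.06 in coding sequence, and over the member peaks 0.07 and -0.06. Without rmTBI library 0 no member peak was called in this comparison and the smallest adjusted p was 0.0501 (edgeR, Benjamini-Hochberg), with 1575 peaks called over the table.

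Where rows of the rmTBI and sham sets overlapped, their bounds had little effect on the fold between groups. In the 10 stretches with exactly 2 rows, the 2 log2 folds differed by at most 0.06. The bounds did matter for library number at some pairs. At the last 3' UTR pair of Gja1 the log2 of number 1 over number 0 was -0.09 for the longer row and 0.18 for the shorter. At the coding pair of Aqp4 it was -0.18 and -0.06. None of these rows passed the test. A further pair lay at the end of Slc1a2. There the rmTBI row was 90 bases longer than the sham row, and those bases added 125 and 56.3 CPM in sham libraries 0 and 1 and 111 and 54.1 CPM in rmTBI libraries 0 and 1. The log2 of number 1 over number 0 was -0.18 for the longer row and 0.03 for the shorter, and neither passed the test.

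**Figure D3:**
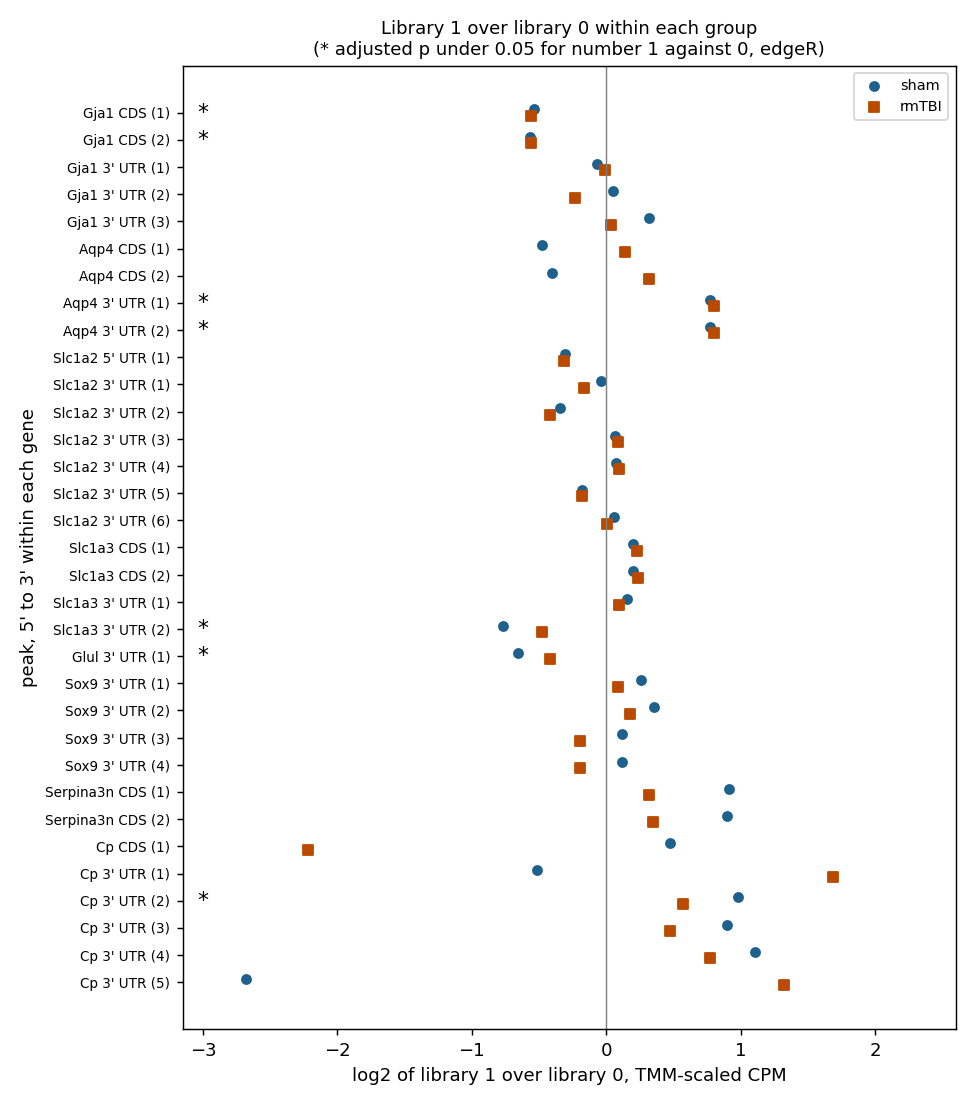
Log2 of library 1 over library 0 in TMM-scaled CPM at each of the 33 peaks, with blue circles for sham, orange squares for rmTBI, and stars where number 1 differed from number 0 by edgeR at an adjusted p under 0.05. Circle and square nearly coincide at the Aqp4 3' UTR peaks (0.78 and 0.80) and the longer Gja1 coding peak (-0.53 and -0.56), and lie apart at the shallow Cp peaks.

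Whether that ratio changed with injury could not be tested from 1 library per combination of group and number. The authors' deposited table gives a log2 value per peak that, across all peaks, tracked this change in the 1 over 0 ratio between sham and rmTBI (r = 0.99 across peaks, which are not independent). A p-value under 0.05 in the authors' deposited table was given to 2 member peaks, both in Cp, against 1.65% of all peaks, and both adjusted p-values were 0.998. The Cp coding peak stood at a log2 of -2.71 and was listed as lower, and the Cp 3' UTR peak from 20005484 to 20006170 stood at 2.38 and was listed as higher. For the peaks of Serpina3n the authors' deposited table gives -0.56 and -0.52, and for the coding peaks of Aqp4 it gives 0.66 and 0.77. All Slc1a2 peaks lay between -0.08 and 0.07 in the authors' deposited table.

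A wider list of 50 astrocyte genes, none of them a member, had 38 genes with 127 peaks. By edgeR 0 of the 127 were called in either direction, against 0.0868% of all peaks tested. At an unadjusted p under 0.05 there were 9 of the 127, against a background of 2.84%. All 9 lay in Kcnj10, which had 11 peaks, and Slc39a12, which had 2. Peaks of the same gene can share reads, so the 9 do not describe the list as a whole. Of the 38, 15 were higher and 23 lower in rmTBI, with a median log2 of -0.07 (-0.07 within number 0 and -0.09 within number 1), beside 0.01 over all genes. Without rmTBI library 1 the median was -0.16. The largest values among those with enough counts were negative. Kcnj10, the inward rectifier that carries potassium into astrocytes and is also found in oligodendrocytes, had 11 peaks and a gene-level log2 of -0.76. Its leading 3' UTR peak, the one of lowest p, held 41.3 and 42.1 CPM in sham and 24.3 and 26.0 CPM in rmTBI (log2 -0.73, SE 0.24, adjusted p = 1, edgeR), with no overlap between groups. The oligodendrocyte markers with a row, in which Mag and Cldn11 were missing, had summed levels of 829 and 812 CPM in sham and 549 and 511 CPM in rmTBI, and their part in the Kcnj10 values was not tested.

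Slc39a12, a zinc transporter gene, had a gene-level log2 of -0.58 (-0.19 within number 0 and -0.74 within number 1). For Slc7a10, which encodes a transporter of small neutral amino acids, it was -0.55 (-0.33 within number 0 and -0.79 within number 1). Sparc, which encodes a secreted matrix protein, stood at -0.54. Sparc held 86.3 and 57.9 CPM in sham and 66.0 and 40.9 CPM in rmTBI at its leading peak, so that its groups overlapped. Its gene-level value was -0.06 within number 0 and -0.99 within number 1.

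A wider list of 48 genes known from reactive astrocytes had rows for 15, with 46 peaks. Most genes by which reactive states are usually told apart, among them Lcn2, Timp1, C3, C4b, Cd44, Osmr and Stat3, had no row and were not analysed. By edgeR 0 of the 46 peaks were called and 0 had an unadjusted p under 0.05, against 0.0868% and 2.84% of all peaks tested. The genes split into 8 higher and 7 lower, with a median log2 of 0.06 (-0.08 within number 0 and 0.05 within number 1). The median was -0.04 without rmTBI library 1 and -0.11 without sham library 0. The largest value was 0.45 for Smad3, a mediator of TGF-beta signalling (0.68 within number 0 and 0.17 within number 1). Next came H2-D1, a class I histocompatibility gene whose reads may be shared with its relatives, at 0.42 (0.10 within number 0 and 0.89 within number 1). On the lower side stood Amigo2, a neuronal adhesion gene also listed for reactive astrocytes, at -0.56 (-0.38 within number 0 and -0.59 within number 1). Edn1, the endothelin gene, was at -0.36 (-0.08 within number 0 and -0.71 within number 1). Smad3 held 7.84 and 8.19 CPM in sham and 12.6 and 10.7 CPM in rmTBI at its leading peak. Endothelial and mural markers had a median of -0.13 over 5 genes.

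**Figure D4:**
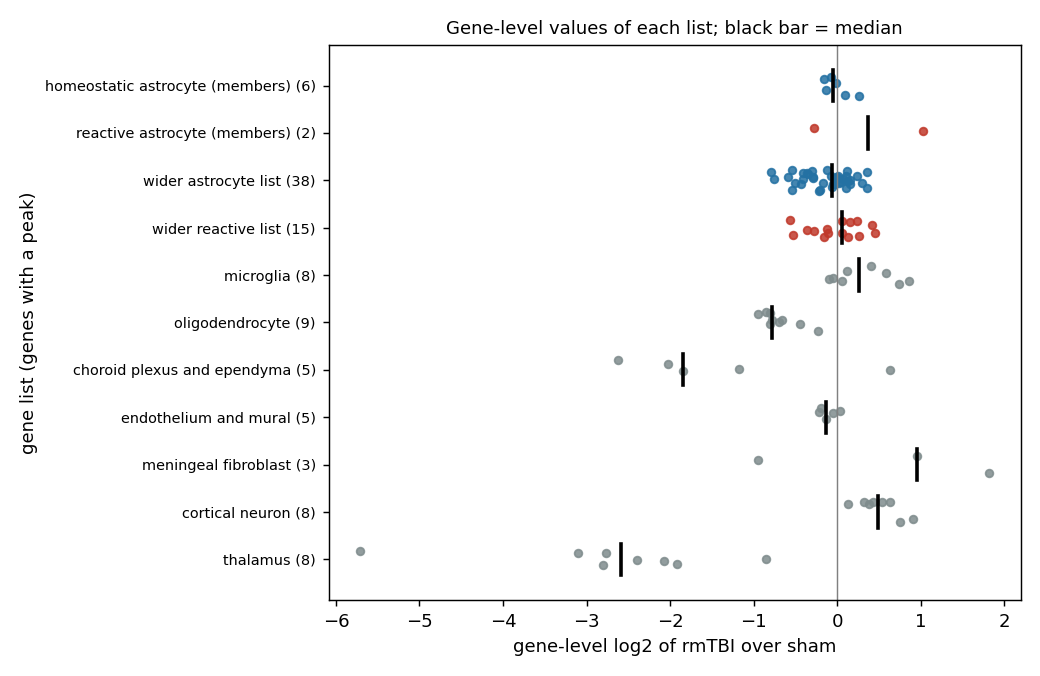
Gene-level log2 of rmTBI over sham (median over a gene's peaks), 1 point per gene with a row, by list, with the number of genes in parentheses and a black bar at the median. The homeostatic, wider astrocyte and wider reactive lists centre near 0 (-0.05, -0.07 and 0.06), while the thalamic, choroid plexus and oligodendrocyte lists have medians below it and the cortical neuron and meningeal lists have medians above 0 (0.49 and 0.95).

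The genes whose gene-level levels followed Serpina3n most closely over the 4 libraries were sought among 7631 genes with at least 10 counts at every peak in every library. They were Wnt10a, a Wnt ligand gene (root mean square difference 0.10 log2 units after centring), Egr2, an immediate early gene (0.11), and Fbln2, which encodes an extracellular matrix protein (0.15). Centred values of Serpina3n were -0.97 and -0.11 in sham and 0.38 and 0.70 in rmTBI. Those of Wnt10a were -1.07 and 0.05 in sham and 0.34 and 0.68 in rmTBI. For Slc1a2, whose centred values spanned only -0.08 to 0.09, the nearest were Rnpc3, Jph3 and Taok2, all within 0.01. With 4 libraries such likeness is a description only.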

How the data were processed

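Per the file headers, the authors deposited whole-number read counts per peak and library, with log2 fold changes, p-values and adjusted p-values of an unnamed comparison. Per the submitters' processing notes, STAR, DESeq2 and GRCm39 were used, without versions or roles. For the peak caller, read counter and strand setting nothing is stated in the labels. The length of a peak is its genomic span. The shorter table of changed peaks is cut off at its end and was not used.

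Counts of all peaks were fitted with edgeR 4.0.16 in R 4.3.3 (TMM, filterByExpr, quasi-likelihood F-test, Benjamini-Hochberg over 33415 peaks, 2 residual degrees of freedom), once by group and once by library number. A peak with an adjusted p under 0.05 was called. The SE is the size of the log2 fold over the square root of F. Values within a number and ratios of libraries add 0.5 counts. Gene-level folds are medians over a gene's peaks, and gene-level levels use a prior count of 2. DESeq2 1.42.0, other scaling, count filters, the number as a block and leaving out each library were alternatives. The script was tested on simulated data.

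Named were all members, list genes with a called peak, the 4 genes of each wider list with the largest absolute gene-level log2 fold among those averaging at least 10 counts in every library, and the 3 genes nearest Serpina3n and Slc1a2 (Gfap, also fixed for this, had no row). The members and lists were chosen with earlier results of these data known. The RefSeq table of GRCm38.p6 held all 10 members.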

Additional observations from a re-analysis of the deposited data

Results flagged for a closer look

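The contrast in the authors' deposited table, which tracked the change in the 1 over 0 ratio between sham and rmTBI, set apart 2 peaks of Cp by its unadjusted p-value. The coding peak (19974984 to 19977202) had a deposited log2 of -2.71 (p = 0.0407 in the authors' deposited table, adjusted 0.998) and counts of 13 and 36 in sham and 36 and 16 in rmTBI. The 3' UTR peak (20005484 to 20006170) had a deposited log2 of 2.38 in the same table. Its p was 0.0489, adjusted 0.998. It held 24 and 33 counts in sham and 4 and 30 in rmTBI. The 2 differences run in opposite directions within 1 gene, each rests on 1 library per combination, and neither passed the authors' adjustment.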

How the results depend on the processing

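Over all peaks, edgeR called 29 for rmTBI against sham, 134 with DESeq2, 2 with library-size scaling, 0 where every library needed 10 counts or more, 3553 with the library number as a replicate block, and 82 to 122 when 1 library was left out. Under the block, 6 of the 33 member peaks were called, all higher in rmTBI (2 of Serpina3n, 3 of Slc1a3 and 1 of Slc1a2). The 2 rows of Serpina3n overlap, as do 2 of the 3 of Slc1a3. In the wider lists the block called 30 of 127 astrocyte peaks and 3 of 46 reactive peaks, beside 3553 of all 33415 tested. Every other setting for this comparison called 0 member peaks. Same-numbered libraries deviated together (r = 0.48 across peaks), but no label makes them pairs, and they share only a number.

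Between numbers, edgeR called 5485 peaks, 12736 with treatment as a block and 1575 to 2748 without 1 library, and 7 member peaks became 17 and 0 to 4. The first 3' UTR peak of Gja1 turned to 0.065 with library-size scaling, and the Glul call was lost (adjusted p = 0.0760, edgeR).

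The homeostatic median was -0.064 with library-size scaling, -0.018 over sham-set peaks, -0.074 at the highest peaks, and -0.026 to 0.067 without 1 library. Without 1 library the reactive median ran from -0.0080 to 0.94, the wider astrocyte median from -0.16 to -0.094 and the wider reactive median from -0.11 to 0.029.

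Over all 33 member peaks, between 19 and 28 kept the sign of the full fit when 1 library was left out. At gene level all 4 homeostatic genes that were lower changed sign without 1 library. Sox9 turned from -0.078 to 0.041 without sham library 1 and Glul from -0.16 to 0.19 without sham library 0. Aqp4 turned from -0.13 to 0.099 without rmTBI library 0 and Gja1 from -0.018 to 0.096 without rmTBI library 1. Slc1a2 and Slc1a3 kept their sign. Single peaks were followed only if highest of their class, called by number, or among the flagged Cp peaks. Among these, the following log2 folds of rmTBI over sham changed sign without 1 library. The Gja1 coding peaks ran from -0.33 to 0.27 and from -0.34 to 0.28, the Aqp4 coding peak from -0.33 to 0.13 and both Aqp4 3' UTR peaks from -0.61 to 0.29. The highest Slc1a2 peak ran from -0.067 to 0.12, the short Slc1a3 3' UTR peak from -0.23 to 0.53 and Glul from -0.45 to 0.19. The Cp coding peak ran from -0.99 to 1.25 and its main 3' UTR peak from -0.70 to 0.31. The Serpina3n peak from 104408855 to 104409275 kept its sign, from 0.69 to 1.63. Between numbers, signs changed at the Aqp4 coding peak (-0.36 to 0.028), the long Slc1a3 3' UTR peak (-0.033 to 0.29), Serpina3n (-0.049 to 1.42) and Cp (coding -1.65 to 0.038, 3' UTR -0.57 to 1.89). A group of 1 library is assumed to vary like the other.

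Depth limits the folds of Serpina3n (28 counts in sham library 0) and of the minor Cp peaks (as few as 3 counts).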
